A study of Mus musculus with 18 samples.

Results

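The 10 genes described here encode secreted glycoproteins of the extracellular matrix other than collagens, and 1 helper of collagen folding. They were chosen by symbol from the deposited count matrix of 25957 genes: Tnc, Fn1, Thbs1, Nid1, Hspg2, Lamb1, Lamc1, Sparc, Postn and Serpinh1. The choice was made with earlier results of these data known, so counts of called genes beside a background describe the set and do not test it. All 10 had a unique row and passed the filter on low counts that left 10075 genes for testing. The label fits 9 of them by what they encode, since Serpinh1 (Hsp47) is a collagen chaperone that stays in the endoplasmic reticulum, and perlecan, the product of Hspg2, is also a proteoglycan.

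Adherent C2C12 cells, an immortal mouse myoblast line, were profiled by BRB-seq, a bulk method that tags each sample's cDNA and reads mainly the 3' ends of mRNAs. There were 6 groups of 3 libraries, and every group was the same line in medium with 20% serum. Control cells met no enzyme and were scraped in lysis buffer. The other cells were washed and met 200 µL of an enzyme before lysis. In 3 groups this was trypsin (0.25%, 37 °C), left on for 30 s, 3 min or 30 min. Low trypsin cells had the same solution taken away straight after it was added and then stayed at 37 °C for 3 min. The last group spent 5 min with shaking at 4 °C in a cold-active protease. Washing, incubation and resuspension differed from control along with the enzyme, and their parts in any difference cannot be told apart. The 3 libraries of a group carry lot numbers whose meaning the labels do not give, so the p-values reflect only how these samples spread, and that spread may be technical.

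Cells make these proteins themselves and build them into the layer on which they sit. Fibronectin binds integrins and is drawn into fibrils, while tenascin C, thrombospondin 1, SPARC and periostin are matricellular proteins, which tune how cells grip the matrix more than they bear load. Laminin chains beta 1 and gamma 1 join an alpha chain in the basement membrane that surrounds muscle fibres, where nidogen 1 and perlecan link the laminin network to collagen IV. Trypsin cuts such proteins at the cell surface, but the measurements here are of mRNA, not protein.

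Library totals ran from 1490869 to 2480690 counts, and the 10 genes together took 0.573% to 0.686% of a library. A floor of 3 counts stood at 1.24 to 2.01 CPM (counts scaled to library size). The myoblast label was checked against 8 marker genes, whose sum was 1442 to 1706 CPM, with Myod1 at 45.3 to 67.7 and Des at 800 to 971 CPM in every library and Pax7 at 0 to 2.0 CPM. Myotube markers summed to 293 to 325 CPM in control and 205 to 277 CPM in the treated libraries, fibroblast markers to 112 to 146 CPM (mostly Twist2, with Lum at most 1.0 CPM), blood and endothelial markers to 0.467 to 6.56 CPM, and epithelial and neural markers to 209 to 285 CPM (mostly Krt14 and Tubb3, with Epcam at most 0.8 CPM). The myotube sum moved with treatment, and so did the myoblast sum. The latter was 1442 to 1609 CPM in control, 1643 to 1674 at 3 min and 1635 to 1706 at 30 min. It was 1575 to 1651 CPM at 30 s, 1456 to 1492 in low trypsin and 1561 to 1643 after the cold-active protease, all overlapping control. The part of either sum in the results below was not tested. In bulk RNA, fewer cells of a kind and less of an mRNA per cell cannot be told apart.

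On GRCm38 the matricellular and adhesive genes lie apart: Tnc at chr4:63959785-64047015 (minus strand, 26 exons), Fn1 at chr1:71585520-71653200 (minus, 46 exons), Thbs1 at chr2:118111876-118127133 (plus, 22 exons), Sparc at chr11:55394500-55423183 (minus, 10 exons) and Postn at chr3:54361109-54391037 (plus, 22 exons). The basement membrane genes are Nid1 at chr13:13437551-13512269 (plus, 20 exons), Hspg2 at chr4:137468769-137570630 (plus, 97 exons), Lamb1 at chr12:31265234-31329644 (plus, 34 exons) and Lamc1 at chr1:153218922-153332786 (minus, 28 exons). Serpinh1 is at chr7:99345376-99353239 (minus, 5 exons). Principal transcripts ran from 2274 nt for Serpinh1 to 14187 nt for Hspg2, and 7 of 10 were over 5000 nt. No annotated gene overlapped their last exons on either strand, and no other gene matched their last 600 nt at 95% identity over 45 nt or more.

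Upstream sequence is shown for 3 genes that carry the main results: Tnc, with the largest fitted rise, Hspg2, the only one called after the cold-active protease, and Serpinh1, the only one called lower. The bases come from RefSeq windows on GRCm38.p6, which covered 7 of the 10 genes (Fn1, Thbs1 and Lamc1 were not among them), and stop at the transcription start. They are chr4:64047016-64047265 on the minus strand for Tnc, chr4:137468553-137468768 on the plus strand for Hspg2 and chr7:99353240-99353489 on the minus strand for Serpinh1. Capitals mark matches, on either strand, to the GC box GGGCGG and the TATA box TATAAA.
Tnc: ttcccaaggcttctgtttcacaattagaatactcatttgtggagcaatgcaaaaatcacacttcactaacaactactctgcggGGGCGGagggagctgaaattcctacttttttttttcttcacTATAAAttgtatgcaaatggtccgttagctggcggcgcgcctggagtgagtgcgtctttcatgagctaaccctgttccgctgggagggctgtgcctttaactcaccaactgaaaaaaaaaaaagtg
Hspg2: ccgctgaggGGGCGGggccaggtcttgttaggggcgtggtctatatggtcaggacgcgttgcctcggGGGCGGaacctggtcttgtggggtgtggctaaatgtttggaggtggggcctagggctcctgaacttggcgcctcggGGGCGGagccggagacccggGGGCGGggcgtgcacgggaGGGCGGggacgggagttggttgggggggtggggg
Serpinh1: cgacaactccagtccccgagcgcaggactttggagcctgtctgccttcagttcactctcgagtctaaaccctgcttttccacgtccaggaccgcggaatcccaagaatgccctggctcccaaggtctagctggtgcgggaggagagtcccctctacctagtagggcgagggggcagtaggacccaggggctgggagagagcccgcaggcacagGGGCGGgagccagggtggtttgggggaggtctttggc
The Tnc stretch held 1 TATA box, 126 bases before the start, and 1 GC box, the Hspg2 stretch 5 GC boxes and no TATA box, and the Serpinh1 stretch 1 GC box. Over windows of 250 bases before to 50 after a start, 13.6% of 32817 RefSeq promoters held TATAAA and 35.6% held GGGCGG. The 9 windows of the members came from 7 genes, since Tnc and Postn had more than 1, and those of Tnc overlap and hold the same TATA box and GC box. By window, TATAAA was in 3 of 9 and GGGCGG in 6 of 9. Counted by gene, TATAAA was in 2 of 7 (Tnc and Postn) and GGGCGG in 5 of 7. A gene counted if any of its windows held the motif, whereas the shares of all promoters are by window. The AP-1 motif TGANTCA was in 0 of 7 (7.81% of all promoters) and the heat shock element GAANNTTC in 0 (7.86%). The TEAD motif GGAATG was in 1, Nid1 (14.7%), and CCAAT in 3, Lamb1, Nid1 and Postn (37.4%). A match is only a run of letters, and its absence from a window says nothing about a factor.

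Expression differed among the 6 groups for Fn1, Thbs1, Hspg2, Tnc, Serpinh1 and Nid1, and was not called for Lamb1, Lamc1, Sparc and Postn. The 6 called members stand beside a background of 11.5% of all 10075 tested genes (adjusted p under 0.05 in edgeR's F test over groups). Their adjusted p by edgeR were 4.30e-06, 4.70e-06, 5.65e-06, 0.000446, 0.000473 and 0.000506. The changes were small: the highest group mean was 1.5 times the lowest for Tnc and between 1.19 and 1.35 times for the other 5 called genes. By group mean, Thbs1 and Nid1 were highest in low trypsin, Fn1 and Hspg2 at 30 min, Tnc at 3 min and Serpinh1 at 3 min and in control. Direct tests did not separate many of these means. Tnc at 30 min and in low trypsin did not differ from 3 min (edgeR adjusted p = 0.893 and 0.923). Nor did Hspg2 at 30 min (0.157), or Thbs1 and Nid1 in low trypsin (0.0963 and 0.278). Whether the genes differed in their course was not tested.

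**Figure D1:**
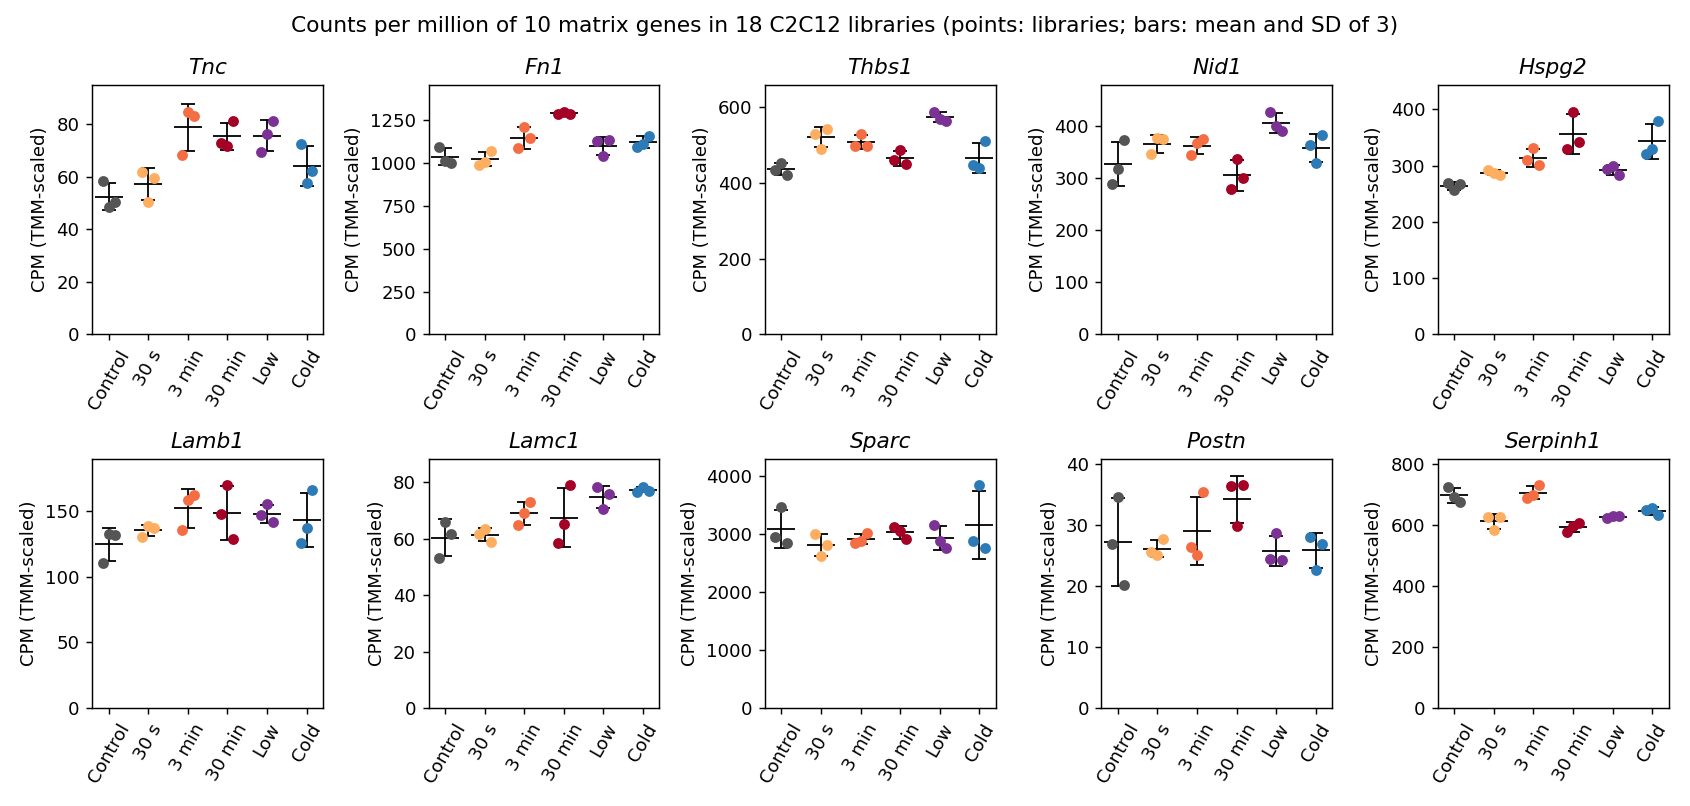
CPM (TMM-scaled, linear axes from 0) of the 10 genes in each of the 18 libraries, by group; points are libraries, bars the mean and SD of 3. The Fn1 libraries at 30 min (1287 to 1301 CPM) lie above all other Fn1 libraries, and the control libraries of Hspg2 (256 to 269 CPM) below all other Hspg2 libraries.

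Tenascin C, a hexameric glycoprotein made at sites of injury and remodelling, showed the largest fitted rise. Tnc stood at 58.4, 48.4 and 50.4 CPM in the control libraries, at 61.7, 50.2 and 59.4 after 30 s, and at 68.3, 84.7 and 83.1 after 3 min. It was at 72.9, 71.8 and 81.3 CPM after 30 min, 69.2, 76.4 and 81.3 in low trypsin and 72.4, 57.7 and 62.0 after the cold-active protease. All libraries of 3 min, 30 min and low trypsin were above all control libraries, while those of 30 s and the cold-active protease overlapped them. Tnc rose against control at 3 min (log2 0.60 ± 0.13 SE, 1.51-fold, edgeR adjusted p = 0.0011), at 30 min (0.53 ± 0.13, edgeR adjusted p = 0.00596) and in low trypsin (0.54 ± 0.13, edgeR adjusted p = 0.00302). Its log2 changes of 0.14 ± 0.13 at 30 s and 0.30 ± 0.13 after the cold-active protease did not pass (edgeR adjusted p = 0.692 and 0.455), with 95% intervals of -0.12 to 0.40 and 0.04 to 0.55. The 30 min call ended without control replicate 2 (edgeR adjusted p = 0.0586).

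Fibronectin mRNA was called higher only at 30 min among the comparisons with control. Fn1 was at 1096, 1013 and 1004 CPM in control, 991, 1008 and 1069 after 30 s, and 1087, 1210.5 and 1145 after 3 min. At 30 min it was at 1287, 1301 and 1287 CPM. The 30 min libraries lay above each of the other 15, and the 3 min libraries overlapped control. Low trypsin gave 1132, 1041 and 1134 CPM and the cold-active protease 1095, 1110.2 and 1161 CPM, both overlapping control. Fn1 rose by log2 0.32 ± 0.05 at 30 min (1.25-fold, edgeR adjusted p = 1.01e-05). At 30 s, 3 min, low trypsin and cold-active protease the log2 values were -0.02, 0.15, 0.09 and 0.11, none of which passed (edgeR adjusted p from 0.112 to 0.911), though the 3 min value passed without control replicate 1 (edgeR adjusted p = 0.0428).

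Thrombospondin 1, which binds CD36 and CD47 and can activate latent TGF-beta, rose early. Thbs1 stood at 433, 453 and 421 CPM in control and at 529, 491 and 543 after 30 s. It was at 499, 528 and 497 after 3 min and at 460.1, 486 and 449 after 30 min. In low trypsin it reached 588, 569 and 563 CPM, and after the cold-active protease 447, 439 and 512. The low trypsin libraries were above every other library, those of 30 s and 3 min were above control, and those of 30 min and the cold-active protease overlapped control. Thbs1 rose by log2 0.40 ± 0.06 in low trypsin (1.32-fold, edgeR adjusted p = 2.75e-06), 0.26 ± 0.06 at 30 s (edgeR adjusted p = 0.00195) and 0.22 ± 0.06 at 3 min (edgeR adjusted p = 0.0188). Each call was refitted with each of the 6 libraries compared left out in turn, called leave-one-out fits here. The 3 min call ended in 2 of 6 leave-one-out fits (edgeR adjusted p = 0.174 without 3 min replicate 2 and 0.134 without control replicate 3) and with the trend of change on transcript length removed (0.130). At 30 min and after the cold-active protease the value was 0.09 ± 0.06 each (edgeR adjusted p = 0.482 and 0.72). Direct tests against 3 min did not pass for low trypsin (0.17 ± 0.06, edgeR adjusted p = 0.0963) or for 30 min (-0.13 ± 0.06, edgeR adjusted p = 0.335). Low trypsin was not tested against the other treatments.

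SPARC, a collagen-binding protein, and periostin, a partner of tenascin C and fibronectin, did not pass in any of the 9 comparisons. Sparc ranged from 2858 to 3467 CPM in control and from 2633 to 3846 CPM in the treated libraries, with every treated group overlapping control. The highest value was cold-active protease replicate 2, against 2881 and 2759.5 CPM in the other libraries of its group. Sparc's log2 changes against control lay between -0.13 (30 s, 95% interval -0.27 to 0.00) and 0.03. Postn was at 27.0, 34.7 and 20.3 CPM in control and at 36.5, 29.9 and 36.6 CPM at 30 min, which overlapped, and its log2 change at 30 min was 0.32 with a 95% interval of -0.05 to 0.69 (edgeR adjusted p = 0.4). The other Postn changes against control lay between -0.08 and 0.08 with SE of 0.19.

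Among the basement membrane genes, perlecan mRNA was the most widely changed. Hspg2 was at 269, 256 and 267 CPM in control, 292, 286 and 284 after 30 s, 309, 332 and 300.2 after 3 min, and 329, 396 and 341 after 30 min. It was at 293, 299 and 283 CPM in low trypsin and at 321, 329 and 379 CPM after the cold-active protease. All 15 treated libraries were above all control libraries. Hspg2 rose at 30 min (log2 0.43 ± 0.07, 1.35-fold, edgeR adjusted p = 9.55e-06), after the cold-active protease (0.37 ± 0.07, 1.30-fold, edgeR adjusted p = 0.00069) and at 3 min (0.25 ± 0.07, edgeR adjusted p = 0.022). The 3 min call ended in 4 of 6 leave-one-out fits, namely when 3 min replicate 2 or 1 was dropped (edgeR adjusted p = 0.231 and 0.0640) or control replicate 2 or 3 (0.135 and 0.0614). With the length trend removed it was 0.14 (edgeR adjusted p = 0.392). At 30 s (0.12 ± 0.07) and in low trypsin (0.15 ± 0.07) Hspg2 did not pass (edgeR adjusted p = 0.39 and 0.286), although the libraries did not overlap.

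Nidogen 1, which links laminin to collagen IV, rose in low trypsin only among the comparisons with control, and whether that set it apart from the other treatments was tested only against 3 min. Nid1 stood at 289, 317 and 374 CPM in control, a wider spread than in any treated group. It was at 346, 376 and 375 after 30 s, 345, 367 and 375 after 3 min, and 278, 337 and 300.1 after 30 min. Low trypsin gave 427, 400.2 and 391 CPM, above every other library, and the cold-active protease 363, 329 and 382 CPM. The low trypsin rise was log2 0.31 ± 0.07 (1.24-fold, edgeR adjusted p = 0.0034), and the call ended without control replicate 1 (edgeR adjusted p = 0.0646). Low trypsin against 3 min gave 0.17 ± 0.07, which did not pass (edgeR adjusted p = 0.278). The 30 s value of 0.15 did not pass with all libraries (edgeR adjusted p = 0.269) and passed without control replicate 3 (0.0277).

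The laminin chains had positive changes of which none passed. Lamb1 was at 110.4, 132 and 132 CPM in control, and its log2 changes against control ran from 0.11 at 30 s to 0.27 ± 0.10 at 3 min (95% interval 0.08 to 0.47, edgeR adjusted p = 0.139). Its 3 min libraries (135, 158 and 163 CPM) and low trypsin libraries (147, 155 and 142 CPM) lay above control. Lamc1 was at 53.3, 65.9 and 61.8 CPM in control, at 78.2, 70.4 and 75.7 in low trypsin and at 76.6, 78.2 and 76.9 after the cold-active protease, both above control. The Lamc1 changes were 0.30 ± 0.12 and 0.35 ± 0.12 (edgeR adjusted p = 0.148 and 0.229), with 95% intervals of 0.07 to 0.54 and 0.11 to 0.58.

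Serpinh1 was the only one of the 10 called lower against control. It stood at 725, 692 and 676 CPM in control and at 624, 584 and 626 after 30 s. It was at 688, 699 and 729 CPM after 3 min and at 576, 597 and 606 CPM after 30 min. Low trypsin gave 623, 628 and 629 CPM and the cold-active protease 648, 656 and 632 CPM. Libraries of 30 s, 30 min, low trypsin and cold-active protease were all below control, and those of 3 min overlapped it. Serpinh1 fell by 0.23 on the log2 scale at 30 min (SE 0.05, edgeR adjusted p = 0.00274) and by 0.19 at 30 s (SE 0.05, edgeR adjusted p = 0.0132). The 30 s call ended without 30 s replicate 2 or control replicate 1 (edgeR adjusted p = 0.103 and 0.0832, respectively). In low trypsin and after the cold-active protease the changes of -0.15 and -0.11 did not pass (edgeR adjusted p = 0.0789 and 0.531).

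**Figure D2:**
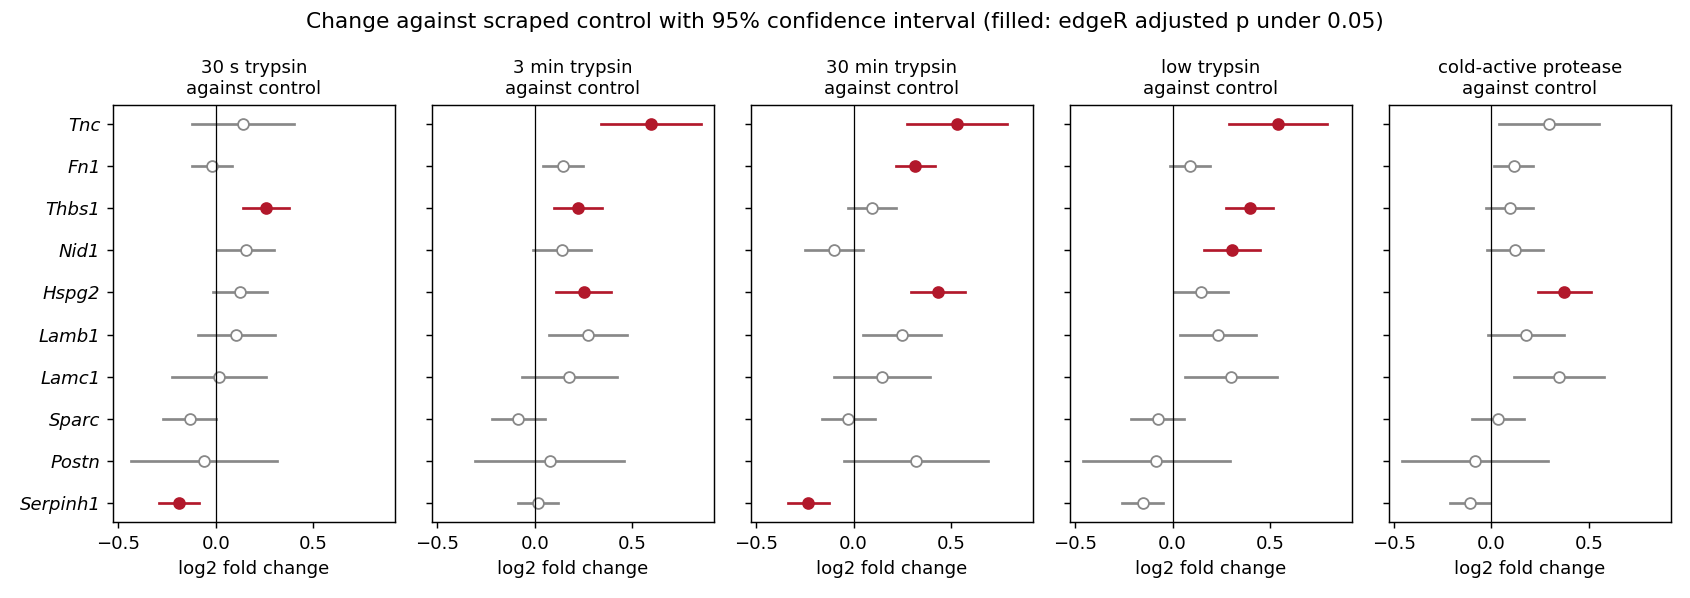
Log2 fold change of each gene against scraped control in the 5 treatments, with its 95% confidence interval; filled red points had an edgeR adjusted p under 0.05. Thbs1 and Serpinh1 pass at 30 s, Tnc, Thbs1 and Hspg2 at 3 min, Tnc, Fn1, Hspg2 and Serpinh1 at 30 min, Tnc, Thbs1 and Nid1 in low trypsin, and Hspg2 after the cold-active protease.

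Counted by comparison, few members passed in each. At 30 s 1 of 10 was higher and 1 lower, where 3.24% and 3.7% of all tested genes were called. At 3 min the count was 3 higher and 0 lower (background 1.01% and 2.95%), at 30 min 3 higher and 1 lower (2.07% and 2.61%), in low trypsin 3 and 0 (3.3% and 1.9%), and after the cold-active protease 1 and 0 (0.199% and 0.467%). With 10 genes a single call is already 10%, so a count of 1 says little beside a background of a few percent. Median log2 changes of the 10 genes were 0.06, 0.16, 0.20, 0.19 and 0.12 in that order, beside 0.0028, 0.0091, 0.0049, -0.0029 and -5.58e-05 over all tested genes. Of the 10 changes, 6, 9, 7, 7 and 8 were above 0. The 5 comparisons share the control libraries, so these counts are not independent of each other. The genes were also chosen with earlier results of these data known, so an excess over the background is a description.

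Transcript length moved with these values. For the 2178 tested genes with a coding transcript over 5000 nt the median log2 changes were 0.01, 0.06, 0.07, 0.04 and 0.03 in the same order, and for the 240 genes of 800 nt or less they were -0.38, -0.50, -0.10, -0.04 and 0.01. With the trend of change on length removed, the medians of the 10 genes were 0.04, 0.10, 0.14, 0.12 and 0.09. Tnc, Fn1, Hspg2 and Serpinh1 kept their 30 min calls under that setting, as did Tnc, Thbs1 and Nid1 in low trypsin.

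**Figure D3:**
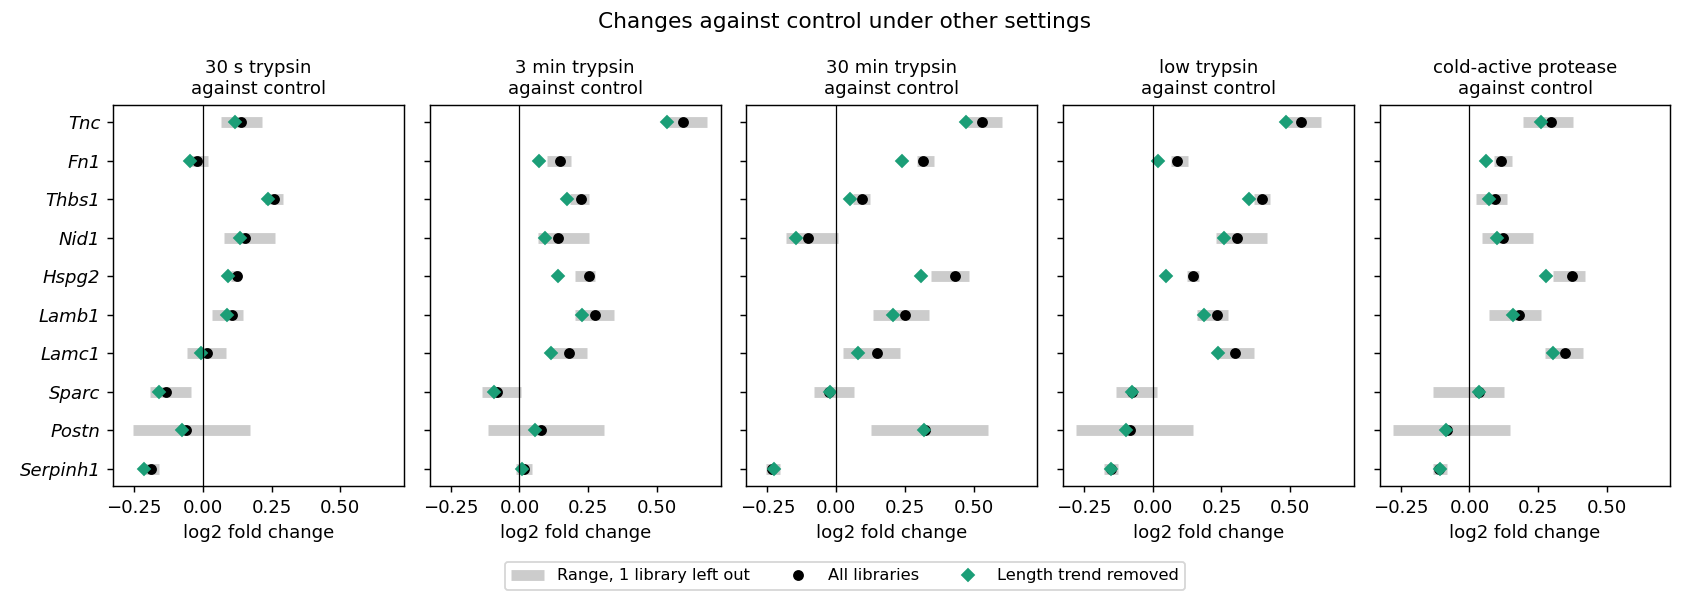
Log2 fold change against control for the 10 genes with all libraries (black), with the trend on transcript length removed (green), and the range when 1 library of either group was left out (grey bars). Removing the length trend takes Hspg2 at 3 min from 0.25 to 0.14, and the grey bars are widest for Postn.

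The treatments were also compared with each other directly. From 30 s to 3 min of trypsin, Tnc was higher by log2 0.46 ± 0.12 (edgeR adjusted p = 0.0338) and Serpinh1 by 0.21 ± 0.05 (edgeR adjusted p = 0.0173), so 2 of 10 were higher and 0 lower against backgrounds of 0.476% and 1.46%. The Tnc call held in 2 of 6 leave-one-out fits (edgeR adjusted p up to 0.252, without 30 s replicate 2), and the Serpinh1 call in 4 of 6 (up to 0.179, without 30 s replicate 2). The Tnc call also ended with DESeq2 (DESeq2 adjusted p = 0.0847). It ended too with the length trend removed and with only coding transcripts over 800 nt (edgeR adjusted p = 0.0760 and 0.0530). The Serpinh1 call also ended without a filter (edgeR adjusted p = 0.0517). From 3 to 30 min, Serpinh1 fell by 0.25 on the log2 scale (SE 0.05, edgeR adjusted p = 0.000961), in all 6 leave-one-out fits, and Fn1 rose by 0.17 ± 0.05 (edgeR adjusted p = 0.0383), in 1 of 6 (up to 0.257, without 3 min replicate 1). The Fn1 call also ended without a filter, with the length trend removed and with only the 2 groups compared (edgeR adjusted p = 0.0779, 0.0604 and 0.0564). That is 1 higher and 1 lower against 2.83% and 1.2%. Nid1 was at -0.24 ± 0.07 between these times and did not pass (edgeR adjusted p = 0.0504), but passed under 4 of 8 other settings, among them the 3 that ended the Fn1 call. With all libraries, Serpinh1 differed in the 3 min group from the trypsin groups before and after it. Only its difference from 30 min held in every leave-one-out fit, and both differences share the 3 min libraries.

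**Figure D4:**
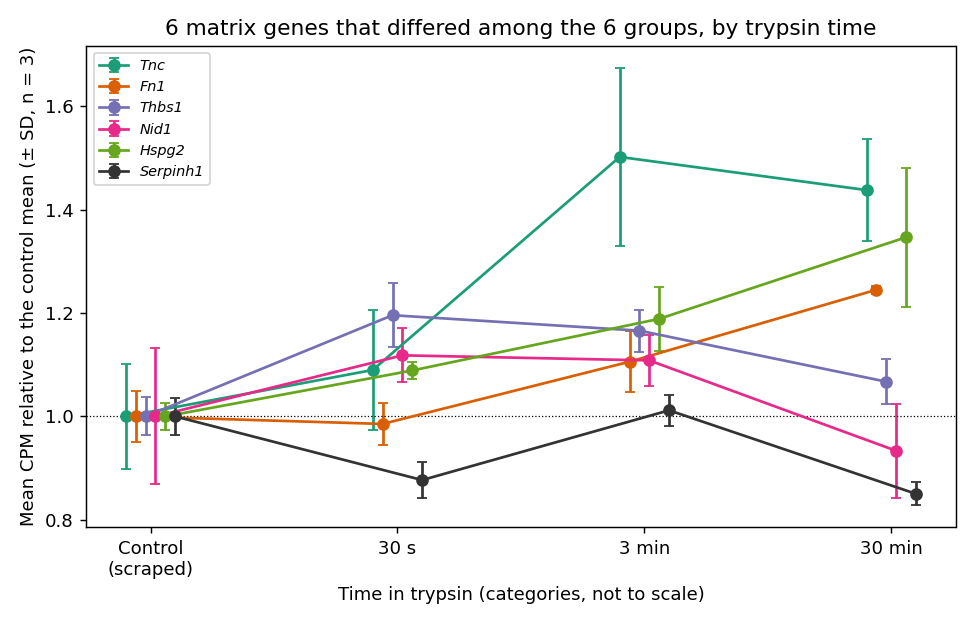
Mean CPM relative to the control mean (± SD, n = 3) in control and after 30 s, 3 min and 30 min of trypsin, for the 6 genes that differed among the 6 groups; times are categories, not to scale. Fn1 and Hspg2 are highest at 30 min, Tnc at 3 min and Thbs1 at 30 s, and Serpinh1 lies below 1 at 30 s and 30 min but not at 3 min.

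In low trypsin against 3 min of trypsin, 1 of 10 was lower and 0 higher, where 0.576% and 3.78% of all tested genes were called lower and higher. The gene was Serpinh1, at -0.17 ± 0.05 (edgeR adjusted p = 0.0467). This call ended in all 6 leave-one-out fits (edgeR adjusted p up to 0.271, without 3 min replicate 3) and held under 2 of 8 other settings. The cold-active protease against 3 min gave 0 calls among the 10 by edgeR and by DESeq2. By edgeR, 2.84% of all tested genes were called higher and 0.864% lower. At an unadjusted p under 0.05 by edgeR, 3 of the 10 were lower, and the share of all tested genes at that threshold was not counted. Tnc was at -0.30 ± 0.12 in that comparison (edgeR adjusted p = 0.242), with a 95% interval of -0.54 to -0.06.

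Ordered by mean level, most neighbouring groups overlapped in all 10 genes. Neighbours without overlap were 3 min and 30 min for Fn1, 30 s and low trypsin for Thbs1 and Nid1, control and 30 s as well as low trypsin and 3 min for Hspg2, and low trypsin, cold-active protease and control for Serpinh1. The order was set by these same values, so the pairs are a description. How often groups of 3 libraries did not overlap over all tested genes was not counted, here or for the comparisons with control above. The lowest mean was in control for Tnc, Thbs1, Hspg2, Lamb1 and Lamc1, at 30 s for Fn1 and Sparc, at 30 min for Nid1 and Serpinh1, and in low trypsin for Postn.

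Other genes of the same pathways were counted in fixed lists. Of all tested genes, 3.24% were called higher and 3.7% lower at 30 s, and 1.01% and 2.95% at 3 min. At 30 min the shares were 2.07% and 2.61%, in low trypsin 3.3% and 1.9%, and after the cold-active protease 0.199% and 0.467%. In lists as short as these and those below, 1 call or none says little beside such shares. Of 13 tested basement membrane genes outside the 10, 1 rose at 30 s and 1 at 30 min, both times Lama5, a laminin alpha chain (log2 0.49 and 0.51, edgeR adjusted p = 0.00551 and 0.00867). Each call ended in 2 of 6 leave-one-out fits (edgeR adjusted p up to 0.0659 without control replicate 2 and 0.106 without 30 min replicate 3), and the 30 min call also with the length trend removed (0.41, edgeR adjusted p = 0.0559). Of 17 other matricellular genes, 2 rose and 1 fell at 30 s, 1 rose at 3 min and 3 rose in low trypsin. Ccn1, which binds integrins and is induced by many stimuli, went from 233 ± 7.56 CPM in control to 418 ± 13.6 at 30 s, 405 ± 13.1 at 3 min and 477 ± 16.2 in low trypsin (SD, n = 3; log2 0.84, 0.79 and 1.03). At 30 min it was at 257 ± 21.2 CPM and did not pass (edgeR adjusted p = 0.319). Ccn2 rose by 0.75 at 30 s and 1.03 in low trypsin (edgeR adjusted p = 2.40e-07 and 6.66e-11). Ltbp3, which stores latent TGF-beta in the matrix, fell by 0.55 on the log2 scale at 30 s, and Fstl1 rose by 0.27 in low trypsin. Those 2 calls ended in 3 of 6 cases each (Ltbp3 edgeR adjusted p up to 0.311, control replicate 2 dropped; Fstl1 up to 0.508, control replicate 1 dropped). DESeq2 called neither (DESeq2 adjusted p = 0.0675 and 0.353), and Fstl1 also lost its call with the length trend removed (edgeR adjusted p = 0.0604). The Ccn1 and Ccn2 calls named here held in all leave-one-out fits.

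Among 12 tested proteoglycans, Vcan, a large aggregating proteoglycan, rose at 30 min (log2 0.48 ± 0.11, edgeR adjusted p = 0.00275) and in low trypsin (0.43 ± 0.11, edgeR adjusted p = 0.00635). The low trypsin call of Vcan ended without low trypsin replicate 2 (edgeR adjusted p = 0.184). Sdc4 at 30 s (0.22) and Ogn at 30 min (0.34) also passed, and lost the call in 3 and 4 of 6 leave-one-out fits (edgeR adjusted p up to 0.232 without 30 s replicate 2 and 0.282 without 30 min replicate 1). Ogn also lost it with DESeq2 (DESeq2 adjusted p = 0.0937), without a filter and with only the 2 groups compared (edgeR adjusted p = 0.0564 and 0.0667). The 16 tested receptors for these matrix proteins gave 0 calls in each comparison with control by edgeR. At most 1 had an unadjusted p under 0.05 by edgeR in any of them, and the share of all tested genes at that threshold was not counted. DESeq2 also called none, but gave no adjusted p for 3 of the 16 at 3 min and 4 after the cold-active protease. Beside the shares of all tested genes given above, 0 of 16 says little. Itgb1, the integrin beta 1 chain shared by most of these receptors, was at 772 ± 23.6 CPM in control and between 751 and 819 CPM in the treated groups.

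Of 26 tested procollagen folding genes, 1 rose at 30 s and in low trypsin. That share is near the 3.24% and 3.3% of all tested genes called higher. The gene was Plod2, a lysyl hydroxylase, at 0.52 and 0.60 (edgeR adjusted p = 0.0067 and 0.00203). Its 30 s call ended in 2 of 6 leave-one-out fits (edgeR adjusted p up to 0.0994 without control replicate 3). DESeq2 also called Plod2 higher in both, and none of the others there. By edgeR, none of the 26 was called lower in any comparison with control. At an unadjusted p under 0.05 by edgeR, 1 to 4 were higher and 1 to 3 lower in each. The share of all tested genes at that threshold was not counted. DESeq2 gave no adjusted p for 3 of the 26 at 3 min and 8 after the cold-active protease. Of 14 secretory chaperones outside the collagen pathway, Sdf2l1 rose at 30 s (0.63) and Calr and Pdia4 at 30 min (0.21 and 0.54). Their calls ended in 3, 4 and 5 of 6 leave-one-out fits, with edgeR adjusted p up to 0.141 without control replicate 3, 0.158 without control replicate 2 and 0.294 without 30 min replicate 3. DESeq2 called none of these 3 (DESeq2 adjusted p = 0.0629, 0.0546 and 0.0977), and the Calr and Pdia4 calls also ended without a filter and with only the 2 groups compared (edgeR adjusted p from 0.0524 to 0.0903).

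The genes whose log2 CPM followed Fn1 most closely over the 18 libraries were Lamb2 (Pearson r = 0.84), another laminin chain, then 5430416N02Rik, Rsrp1, Adamts1 and Snhg12 (0.82, 0.81, 0.78 and 0.78). Lamb2 itself was not called over the 6 groups (edgeR adjusted p = 0.368). For Thbs1 they were Errfi1 (r = 0.95), an inhibitor of the EGF receptor, then Ppp2cb, Atn1, Crtc2 and Rab3gap2 (0.91, 0.89, 0.89 and 0.88). They were picked as the highest of all tested genes, so r is a description.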

How the data were processed

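The submitters' processing notes name HISAT2 2.1.0, featureCounts 2.0.1, DESeq2 1.28.1, UMI-tools 1.0.1, Trim Galore 0.6.6, cutadapt 2.6 and the GRCm38 build. Settings and strand are not given in the sources used here. Every test used the deposited whole-number counts. A deposited table named as TPM held CPM (467226 of 467226 cells equal within 1e-06), and the authors' normalized signal values equalled counts divided by size factors of 0.797 to 1.30; neither entered a test.

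All 18 libraries were fitted together in edgeR 4.0.16 (R 4.3.3) with TMM scaling, filterByExpr by group and a quasi-likelihood F test, without covariates, and p was adjusted by Benjamini-Hochberg over 10075 genes. Calls had an adjusted p under 0.05. CPM are TMM-scaled. Replicates varied by 6.08% (edgeR's common biological coefficient of variation). Within groups, all 18 library pairs differed by more than sampling noise (chi-square of 1.41 to 2.60 per degree of freedom). An exact permutation test of 3 against 3 libraries cannot go below p = 0.1, so calls rest on the model. Floors cover counting error only.

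The members and gene lists were chosen with earlier results of these data known. All members are described; from each other list the rule names up to 4 called genes with the smallest p against control, and for the 2 members with the smallest F test p the 5 genes with the highest Pearson correlation of log2 CPM (prior count 2). Annotation came from GENCODE M21 and promoters from RefSeq. Alternatives were RLE scaling, no filter, a mean of at least 10 CPM, a replicate block, coding transcripts over 800 nt, removal of the length trend (loess, span 0.5), only the 2 groups compared, DESeq2 1.42.0 and leaving out each library. The fits were tested on simulated data.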

Additional observations from a re-analysis of the deposited data

Results flagged for a closer look

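These values differ between treatments by a direct test. Tnc was higher by log2 0.46 and Serpinh1 by 0.21 at 3 min than at 30 s of trypsin. Fn1 was higher by 0.17 and Serpinh1 changed by -0.25 from 3 min to 30 min. Serpinh1 in low trypsin differed from 3 min by -0.17. Of these 5, the Serpinh1 difference from 3 to 30 min passed (edgeR adjusted p under 0.05) with any 1 library left out, and each of the others lost its call in at least 2 of 6 cases. In Serpinh1 the 3 differences share the 3 min libraries. Groups of 3 libraries were not searched for outlying libraries.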

How the results depend on the processing

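Over 1260 values of the 10 genes under other settings, 1167 kept their direction and their side of the threshold, 42 lost and 9 gained a call, none of the 1260 reversed a call, and 42 values that were not called changed sign. Counts of called members differed in 4 of the 9 comparisons and in the test over the 6 groups, under settings that kept all libraries. At 3 min against control the count went from 3 to 1 with the length trend removed. At 3 min against 30 s it went from 2 to 1 without a filter, with coding transcripts over 800 nt, with the length trend removed and with DESeq2, and to 3 with only the 2 groups compared, where Fn1 passed (edgeR adjusted p = 0.0484). At 30 min against 3 min it went from 2 to 3 with the replicate block. There it stayed at 2 without a filter, with the length trend removed and with only the 2 groups compared, but 1 of the 2 was shared, as Fn1 lost its call and Nid1 gained one. Over the 6 groups the count went from 6 to 7 without a filter. For low trypsin against 3 min it went from 1 to 0 with RLE scaling, without a filter, with coding transcripts over 800 nt, with the length trend removed and with only the 2 groups compared. With 1 library left out the counts ran from 1 to 3 at 30 s, 1 to 4 at 3 min, 3 to 4 at 30 min, 2 to 3 in low trypsin and 1 to 1 after the cold-active protease. They ran from 0 to 3 for 3 min against 30 s, 1 to 2 for 30 min against 3 min, 0 to 0 for low trypsin against 3 min, 0 to 0 for the cold-active protease against 3 min and 6 to 6 over the 6 groups.

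No pairing by lot number was seen in the values: deviations of same-numbered libraries correlated at -0.060 to 0.071, and 7 of 18 libraries correlated best with their own number. These correlations cannot tell whether libraries of the same number were handled together. With the number as a replicate block, the count for low trypsin against 3 min went from 1 to 0, and Nid1 passed at 30 min against 3 min (edgeR adjusted p = 0.0444); no other member's call changed.

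Over all tested genes, coding transcripts over 800 nt alone left 465 calls of 699 at 30 s, 223 of 399 at 3 min, 87 of 195 for 3 min against 30 s, 242 of 406 for 30 min against 3 min, 200 of 439 for low trypsin against 3 min and 204 of 373 for the cold-active protease against 3 min. Leaving out 1 library took 472 calls at 30 min to 304 (without control replicate 2) and 67 after the cold-active protease to as few as 35 (without its replicate 1), also past 1.5 times without its replicate 2 (39) and control replicates 2 (41) and 3 (43).

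Depth limits Postn most, at 20.3 to 36.6 CPM, where the SE of a log2 change was up to 0.19. Treatment cannot be told apart from washing and incubation, and counting near 3' ends does not measure whole transcripts.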
